A study of Homo sapiens with 8 samples.

Results

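THP-1 cells, an established line from a human monocytic leukaemia, turn macrophage-like under phorbol 12-myristate 13-acetate (PMA). The comparison described here set PMA-differentiated THP-1 cells that received both epirubicin and lipopolysaccharide (LPS) against PMA-differentiated THP-1 cells that received neither. Its arrays were chosen by their titles, which gave 4 of the 8 Clariom S HT arrays of the series, 2 for each condition. The conditions were epirubicin (0.25 µg/mL, 24 h) with LPS (100 ng/mL, 3 h), LPS alone (100 ng/mL, 3 h), epirubicin alone (0.25 µg/mL, 24 h), and untreated. Cells of all 4 conditions, the untreated one included, had received PMA at 100 ng/mL overnight, and epirubicin came before LPS. The 4 arrays with 1 agent each served to find where the effects of the agents added, cancelled or exceeded each other. The sources used here do not say whether the duplicates came from separate cultures. Each p-value thus reflects the spread within duplicate pairs, pooled over the 4 conditions. That spread is possibly technical, and not that between cultures. A macrophage made from a leukaemia line with PMA stands in for primary macrophages only in part, and a single line was used.

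LPS, from the outer membrane of Gram-negative bacteria, is recognised by Toll-like receptor 4 (TLR4) together with CD14 and MD-2. The signal runs through MyD88 to NF-κB and the MAP kinases, which turn on cytokine, chemokine and immediate early genes, and through TRIF to interferon-β, whose receptor then drives interferon-stimulated genes. Epirubicin is an anthracycline that inserts into DNA and traps topoisomerase II on it, which breaks DNA and evicts histones. Macrophages can respond to such damage through p53 and other pathways while they also sense bacterial products.

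Values are log2 expression values, 1 per probe set, so a difference of 1 is a doubling. Array means lay between 6.73 and 6.76 and medians between 5.78 and 5.88, and duplicates correlated at 0.986 to 0.987 across probe sets, against 0.948 to 0.950 between arrays with both agents and untreated arrays. Background probes had array medians of 3.91 to 4.10 and maxima of 6.50 to 7.41, so values under 6 are treated as near background. All 9 measured macrophage and monocyte markers averaged at least 6 in every condition, with array means over the list of 13.77 to 13.83 with both agents, 13.82 to 14.02 with LPS, 14.19 to 14.27 with epirubicin and 14.18 to 14.26 untreated. Of the other lineages, 2 of 7 lymphocyte, 1 of 5 fibroblast and 1 of 6 epithelial markers averaged at least 6. CD14 itself fell with both agents, as given with the LPS receptor genes.

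Both agents together changed 2788 of 20893 gene probe sets (13.3%), where changed means an unadjusted p no higher than 0.01 together with at least 2-fold in either direction, the threshold used throughout for "rose" and "fell". Of these, 1284 (6.15%) were higher and 1504 (7.2%) lower than in untreated macrophages. An adjusted p (Benjamini-Hochberg, limma) no higher than 0.05 was also met by 1213 of the higher (5.81%) and 1377 of the lower (6.59%). LPS alone passed the threshold for 1132 probe sets higher (5.42%) and 1319 lower (6.31%), and epirubicin alone for 223 higher (1.07%) and 254 lower (1.22%), or 2451 (11.7%) and 477 (2.28%) in all. These comparisons share the untreated arrays. The condition with the lower mean was under 6 in 398 of the 1284 probe sets that rose and in 425 of the 1504 that fell, so the size of those changes depends on the level of the background. Without each array in turn, 1667 of the 2788 calls were kept in every case.

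The 15 genes with the largest rises included the chemokine genes CCL3L3, CCL3, CCL20 and CXCL8, the cytokine gene IL1B and the nuclear receptor genes NR4A1, NR4A2 and NR4A3. IL1B, which encodes interleukin-1β, had log2 values of 17.20 and 17.00 with both agents, 17.62 and 17.76 with LPS, 6.95 and 7.16 with epirubicin, and 6.41 and 6.95 untreated. Both arrays with both agents stood below both arrays with LPS alone and more than 9 log2 units above every array without LPS. The joint difference was 10.42 ± 0.26 (standard error, adjusted p = 7.45e-07 from limma), a 1371-fold higher level. CCL3L3, a chemokine whose probes may share signal with its near-copy CCL3, had 14.02 and 13.94 with both agents, 15.31 and 15.49 with LPS, 3.41 and 3.05 with epirubicin, and 3.17 and 3.50 untreated. Its joint difference of 10.64 ± 0.25 was the largest of any named gene. Because its values without LPS lay near background, the rise is better read as at least 252-fold, the value with everything under 6 raised to 6 (called floored from here on). LAMP3, a lysosomal protein of maturing dendritic cells, had 14.64 and 14.49 with both agents, 13.51 and 13.40 with LPS, 5.41 and 4.93 with epirubicin, and 4.42 and 4.63 untreated. Here the arrays with both agents were the highest, and the joint difference was 10.04 ± 0.25, or at least 378-fold with the same floor.

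TNFAIP6, a hyaluronan-binding protein of inflamed tissue, rose by 10.54 ± 0.31, TRAF1, an adaptor of TNF receptors, by 9.81 ± 0.40, and CCL20, a chemokine for CCR6, by 9.96 ± 0.43. With values under 6 raised to 6 these rises were at least 1011-fold, 399-fold and 363-fold. CXCL8, a neutrophil chemokine, had 15.91 and 16.23 with both agents, 16.42 and 16.28 with LPS, 7.05 and 6.32 with epirubicin, and 7.43 and 7.91 untreated, a joint rise of 8.39 ± 0.32. The nuclear receptors NR4A2, NR4A3 and NR4A1 rose by 10.05, 9.05 and 8.16. IL7R, a receptor chain for interleukin-7, rose by 8.23, CCR7, a receptor that guides cells to lymph nodes, by 8.13, and DUSP5, a phosphatase that acts on ERK, by 8.24. On floored values NR4A2, NR4A3 and NR4A1 rose at least 211-fold, 69.6-fold and 103-fold, and IL7R, CCR7 and DUSP5 at least 141-fold, 119-fold and 129-fold. The probe set named SPECC1L-ADORA2A, a read-through transcript that overlaps the adenosine receptor gene ADORA2A, rose by 9.55, and ADORA2A itself by 6.89. Among the 15 largest rises, the highest joint adjusted p was 2.69e-05.

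The 15 genes with the largest falls included DDIT4L, CD180, GPR34 and PPARGC1A. DDIT4L, an inhibitor of mTOR signalling, had 6.17 and 6.49 with both agents, 7.62 and 7.50 with LPS, 12.56 and 12.34 with epirubicin, and 13.91 and 13.66 untreated. The 4 conditions did not overlap, and each agent alone gave a lower level than untreated, with both agents lowest. Its joint difference was −7.46 ± 0.24, a 176-fold lower level. CD180, a Toll-like receptor homologue that dampens the response to LPS, had 7.13 and 6.54 with both agents, 9.31 and 9.22 with LPS, 12.72 and 12.85 with epirubicin, and 14.11 and 14.42 untreated. It had the same order of conditions without overlap, and a joint difference of −7.42 ± 0.27 (172-fold lower). GPR34, a receptor for lysophosphatidylserine, fell by 7.13, at least 28.1-fold where values under 6 are raised to 6, and CX3CR1, the fractalkine receptor, fell by 5.69, at least 8.56-fold. In bulk RNA, fewer cells that express a gene and less of its RNA per cell cannot be told apart.

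PPARGC1A, a coactivator of mitochondrial genes, fell by 6.18, TMEM37 by 5.72, RHOBTB2 by 5.38 and CXCR2, a receptor for CXCL8, by 4.83. PPARGC1A and CXCR2 were near background with both agents, and their falls were at least 37.8-fold and 8.53-fold when floored. MERTK, a receptor for apoptotic cells, had 10.55 and 10.62 with both agents, 10.56 and 10.48 with LPS, 14.69 and 14.52 with epirubicin, and 14.92 and 14.77 untreated. The arrays with both agents lay beside those with LPS, with a joint difference of −4.26 ± 0.22. Of the 15 largest falls, FAM117B, USP2, STARD13, MBNL2, YPEL3 and LRRC8C fell by between 4.27 and 4.84.

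**Figure D1:**
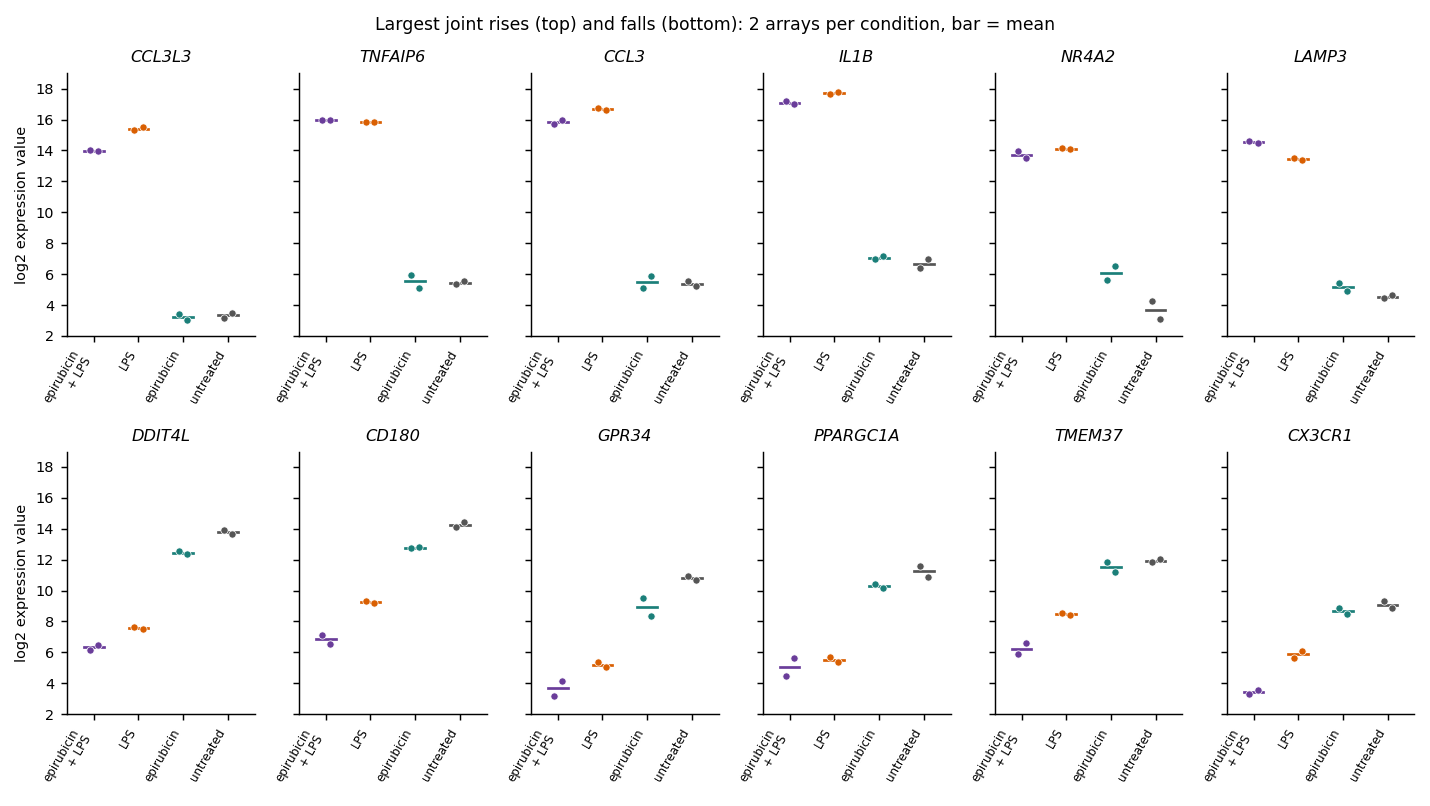
Log2 expression value (vertical axis) on each of the 8 arrays for the 6 named genes with the largest joint rises (top) and falls (bottom), with points for arrays and bars for the mean of 2. In the top row the arrays with LPS, with or without epirubicin, sit above 13 and the others below 8, and in the bottom row the arrays with both agents are the lowest for DDIT4L and CD180.

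Gene lists put together by role moved as follows, against a median over all probe sets of −0.04 for both agents, of which 6.15% rose and 7.2% fell. Among probe sets with a condition mean of at least 6, 10.6% rose and 12.4% fell. NF-κB subunits and inhibitors rose in 13 of 17 measured members and fell in 0, with a median joint difference of 4.25 against 4.07 for LPS alone and 0.26 for epirubicin alone. NFKBIA, the inhibitor that NF-κB itself induces, rose by 5.03 ± 0.23, NFKB1, the p50 precursor, by 4.84 ± 0.22, and TNFAIP3, the ubiquitin-editing brake A20, by 5.02 ± 0.28. Immediate early genes rose in 22 of 23 members, with a median of 3.08 against 3.76 for LPS alone. FOSB rose by 7.90, EGR1 by 4.69, ATF3 by 6.19 and JUNB by 3.10, all transcription factors that come on within minutes to hours of a stimulus, and FOSB by 6.88 when floored. Genes that brake LPS signalling rose in 10 of 17 members and fell in 2, among them SOCS3, an inhibitor of cytokine receptors, which rose by 5.32, and SOCS2, a relative, which fell by 2.11.

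Pro-inflammatory cytokines rose in 10 of 25 members and fell in 0, with a median of 1.17. TNF had 10.63 and 10.42 with both agents, 11.30 and 10.61 with LPS, 5.90 and 6.32 with epirubicin, and 4.20 and 5.29 untreated, a joint rise of 5.78. IL23A, a subunit of interleukin-23, rose by 7.45 and OSM, oncostatin M, by 4.42. The floored rises were 4.52 for TNF, 6.58 for IL23A and 3.16 for OSM. IL6 did not pass the threshold, with 4.27 and 5.96 with both agents, 6.44 and 6.69 with LPS, 3.98 and 3.55 with epirubicin, and 3.62 and 4.28 untreated. Chemokines rose in 13 of 25 and fell in 0. CXCL1, a neutrophil chemokine, rose by 7.82 (4.83 when floored) and CXCL10, an interferon-induced T cell chemokine, by 3.46, while CCL22 differed by 0.48 and did not pass. CCL2, a monocyte chemokine, had 8.34 and 8.23 with both agents, 6.07 and 6.41 with LPS, 8.05 and 9.29 with epirubicin, and 5.45 and 6.74 untreated. Its joint rise of 2.19 stood beside 2.57 for epirubicin alone and 0.15 for LPS alone, the reverse of the pattern in CCL3 and CCL20.

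Of the anti-inflammatory and antagonist cytokines, 6 of 11 rose and 2 fell. IL1RN, the interleukin-1 receptor antagonist, rose by 5.32, INHBA, the activin A subunit, by 6.61 (5.49 when floored), and IL10 by 2.33. IL18BP, which neutralises interleukin-18, fell by 1.97 and GDF15, a stress cytokine, by 1.91. Apoptosis and survival regulators rose in 15 of 26 and fell in 3, with a median of 1.61. PIM2, a survival kinase, rose by 5.47, BCL2A1, an anti-apoptotic BCL2 relative, by 3.94 and PMAIP1, the pro-apoptotic NOXA, by 4.63, so both kinds were among the risers. Of p53 targets, 11 of 32 rose and 7 fell, with a median of 0.24. AEN, a nuclease, rose by 4.00 and DRAM1, an autophagy regulator, by 5.12, while SESN1, a stress-response sestrin, fell by 3.98 and CDKN1A, the cell cycle inhibitor p21, differed by 0.93 without passing the threshold.

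CD14 and TLR4, parts of the LPS receptor, fell. CD14 had 11.04 and 11.08 with both agents, 12.88 and 13.26 with LPS, 13.98 and 13.60 with epirubicin, and 14.80 and 14.86 untreated, again without overlap between conditions. The joint difference was −3.77 ± 0.25 (adjusted p = 4.83e-05 from limma), a 13.7-fold lower level. TLR4 had 9.11 and 9.37 with both agents, 8.01 and 7.79 with LPS, 10.91 and 11.21 with epirubicin, and 10.54 and 10.45 untreated, a fall of 1.25. Over LPS receptor and Toll-like receptor genes 5 of 21 rose and 4 fell, and IRAK2, a kinase downstream of MyD88, rose by 6.51, or 4.40 when floored. Of inflammasome genes 3 of 19 rose (15.8%) and 5 fell (26.3%), beside 10.6% and 12.4% of the probe sets with a condition mean of at least 6. NLRP3 differed by 0.17 and did not pass, CASP5, a cytosolic LPS sensor, rose by 3.59 (1.09 when floored) and PYCARD, the adaptor ASC, fell by 2.58.

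Type I interferon-stimulated genes rose in 23 of 47 members and fell in 3. OASL, an antiviral protein related to oligoadenylate synthetase, rose by 7.39, IFIT1, which binds foreign RNA, by 4.59, and RIGI, an RNA sensor, by 3.46, while SP110, a nuclear body protein, fell by 1.99. Floored, these rises were 6.21 for OASL and 3.09 for IFIT1. G2 and mitosis genes fell in 16 of 47 and rose in 0, with a median of −1.0. CKAP2, a spindle protein, fell by 3.66, PLK1, the mitotic kinase, by 3.78, and TOP2A, the topoisomerase that anthracyclines trap, by 1.86. S phase genes fell in 10 of 55 and rose in 1, RFC2, a clamp loader subunit, by 1.29. The proliferation and undifferentiated-cell markers, which include MKI67 and TOP2A, had array means of 8.94 to 8.97 with both agents, 9.62 to 9.69 with LPS, 9.42 to 9.50 with epirubicin and 9.19 to 9.41 untreated, and their part in these falls was not tested. Ribosomal protein genes, taken as a steady set, rose or fell in 0 of 25, with a median of −0.01. They spanned differences of −0.32 to 0.26.

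**Figure D2:**
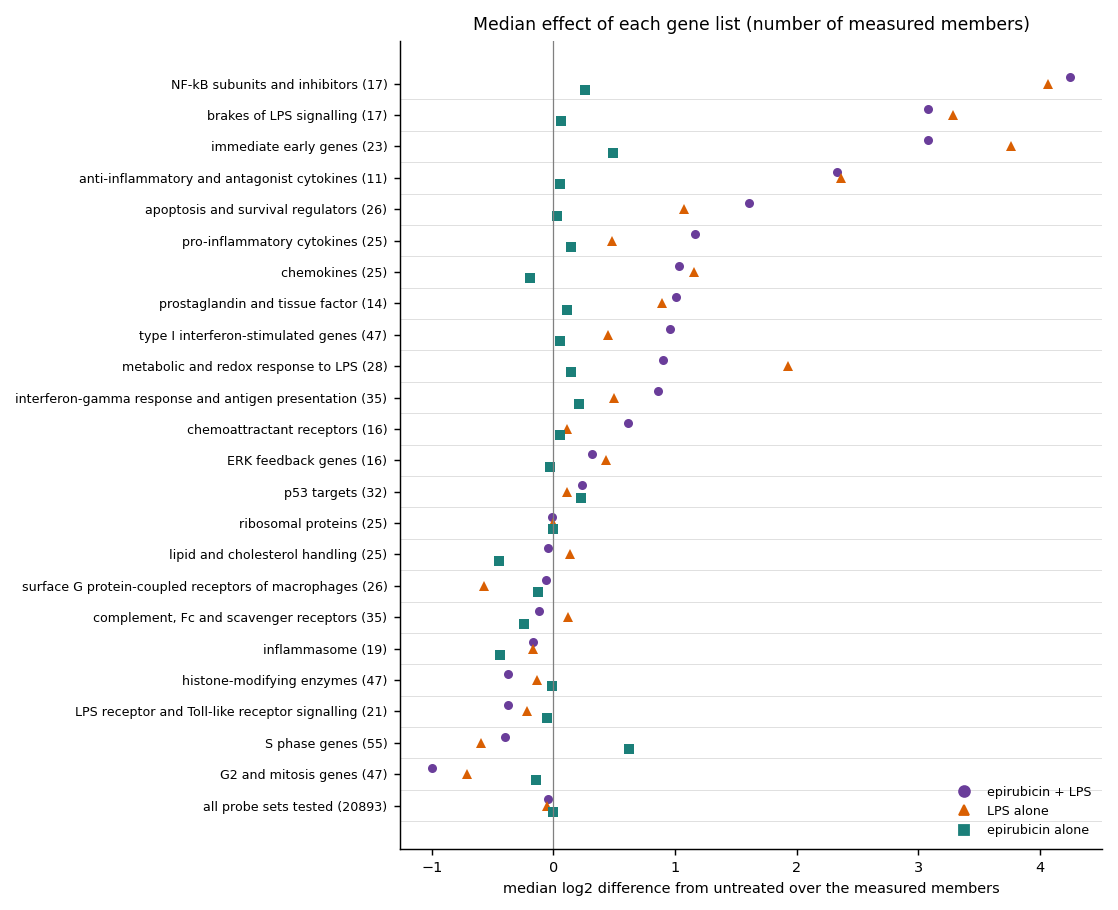
Median log2 difference from untreated (horizontal axis) over the measured members of each gene list other than cell type markers and the genes that the article names, for epirubicin plus LPS (circles), LPS alone (triangles) and epirubicin alone (squares), with the number of members in brackets and all probe sets in the bottom row. Among the lists shown, medians for both agents run from 4.25 for NF-κB genes to −1.0 for G2 and mitosis genes, and S phase genes are the list with the largest positive median for epirubicin alone, at 0.62.

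How the joint effect is made up was read from a pair of average effects. The average LPS effect is the mean of the LPS effects with and without epirubicin, the average epirubicin effect is the mean of the epirubicin effects with and without LPS, and their sum is exactly the joint effect. The average LPS effect passed the threshold for 1159 probe sets higher (5.55%) and 1423 lower (6.81%), the average epirubicin effect for 141 higher (0.675%) and 168 lower (0.804%), or 2582 (12.4%) and 309 (1.48%) in all. Over the 2788 probe sets with a joint change, the median size of the average LPS effect was 1.39 and that of the average epirubicin effect 0.351. Both average effects passed in the same direction for 76 probe sets (0.364%) and in opposite directions for 36 (0.172%). Where an adjusted p from limma no higher than 0.05 was also asked, the average epirubicin effect passed for 35 probe sets higher and 63 lower, the same-direction class held 10 higher and 19 lower, and the opposite-direction class held 9 with LPS higher and 2 with LPS lower. Of the class members ranked highest, LIPG, IL1RN, GPR34, IL10, SLCO4C1 and EBF1 did not meet it, with adjusted p of 0.0569 to 0.0937 for their average epirubicin effects.

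Where the average effects ran the same way upward there were 35 probe sets, with joint differences of 2.22 to 7.56 and a median of 3.20. Both average effects had to pass and their sum is the joint difference, so a large joint difference follows from the choice. Members need not have risen with each agent alone. NXN had −0.36 with LPS alone and −0.80 with epirubicin alone, and CGN had −0.13 with epirubicin alone. UPP1, uridine phosphorylase, had 11.91 and 12.25 with both agents, 9.55 and 9.76 with LPS, 8.56 and 9.30 with epirubicin, and 7.02 and 7.89 untreated. Each agent alone stood above untreated and both together gave the highest arrays, a joint rise of 4.62, of which 2.67 was the average LPS effect and 1.95 the average epirubicin effect. CLDN1, a tight junction protein, had 8.12 and 8.31 with both agents, 5.76 and 6.32 with LPS, 4.64 and 4.14 with epirubicin, and 3.10 and 2.90 untreated, a joint rise of 5.21. Since its values without LPS were near background, the rise was at least 4.64-fold when floored. The floored average epirubicin effect of CLDN1 was 1.03, all of it from the arrays with LPS, and the floored difference from the sum of the single effects was 2.05. IL1RN had 12.29 and 12.21 with both agents, 9.73 and 9.27 with LPS, 8.22 and 7.12 with epirubicin, and 6.50 and 7.36 untreated. Its arrays with epirubicin and its untreated arrays overlapped, and 1.75 of its joint rise of 5.32 was the average epirubicin effect. EMP2, a membrane protein, rose by 6.08 with an average epirubicin effect of 1.53, and KLF5, a transcription factor, by 5.92 with 1.43. For KLF5 the floored rise was 4.59 with an average epirubicin effect of 0.81, under the 2-fold limit. Interferon-stimulated genes in this class were USP18, which cuts ISG15 from proteins, RSAD2, the antiviral enzyme viperin, and HERC5, an ISG15 ligase, with joint rises of 3.08, 2.90 and 2.31. RSAD2 averaged 4.88 untreated and 5.67 with epirubicin, and USP18 averaged 5.87 untreated. These means lay near background, so the size of both rises and of their average epirubicin effects depends on its level. For USP18 the effects were 0.76 for LPS alone, 1.43 for epirubicin alone and 3.08 for both.

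Downward in the same direction by the average effects there were 41 probe sets, with joint differences of −7.46 to −2.03 and a median of −3.20. Here too a large joint difference follows from the choice. CD180, DDIT4L, GPR34, CX3CR1 and CD14 were among them, with average epirubicin effects of −1.95, −1.29, −1.70, −1.45 and −1.53 on top of larger average LPS effects. The floored average epirubicin effect was −0.94 for GPR34 (unadjusted p = 0.0281 from limma) and −0.24 for CX3CR1, and neither passed. In PLK1 the agents weighed about equally. It had 6.50 and 5.85 with both agents, 8.38 and 8.96 with LPS, 8.31 and 8.53 with epirubicin, and 10.13 and 9.78 untreated, with average effects of −1.77 for LPS and −2.01 for epirubicin. SPP1, which encodes osteopontin, had 14.94 and 15.18 with both agents, 16.81 and 16.81 with LPS, 16.50 and 16.64 with epirubicin, and 17.78 and 17.79 untreated. Its differences from untreated were −2.72 with both agents, −0.98 with LPS alone and −1.22 with epirubicin alone. The high-affinity IgG receptor gene FCGR1A fell by 2.88, and FCGR1BP, a near-identical relative whose probes may share its signal, by 3.42. LIPG, endothelial lipase, had 3.62 and 5.03 with both agents, 5.61 and 5.62 with LPS, 4.73 and 6.0 with epirubicin, and 7.87 and 8.99 untreated. All its treated arrays lay at or under 6, near background, so its fall of 4.10 is at least 5.38-fold with those values raised to 6.

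The opposite-direction class was chosen on both average effects, whose sum is the joint difference, so that a joint difference smaller than the larger effect follows from the choice. By the average effects, LPS raised and epirubicin lowered 25 probe sets, of which 9 were higher with both agents, 16 did not pass and 14 lay within 2-fold of untreated, with joint differences of −1.23 to 2.33 and a median of 0.44. NAV3, a neuron navigator protein, had 9.90 and 9.87 with both agents, 11.38 and 11.61 with LPS, 6.63 and 6.46 with epirubicin, and 8.97 and 8.94 untreated. LPS alone moved it by 2.54, epirubicin alone by −2.41 and both by 0.93, under the 2-fold limit. IL10, the anti-inflammatory cytokine, had 7.58 and 8.40 with both agents, 10.00 and 10.35 with LPS, 4.67 and 4.63 with epirubicin, and 5.02 and 6.28 untreated. With both agents it stood between LPS and untreated, 2.33 above untreated where LPS alone gave 4.52. The IL10 arrays with epirubicin and the untreated array at 5.02 lay near background, so the size of these differences depends on its level. C1QC, a chain of complement C1q, had 7.53 and 8.93 with both agents, 10.60 and 11.07 with LPS, 7.0 and 7.08 with epirubicin, and 9.83 and 9.09 untreated, a joint difference of −1.23 that did not pass. Its average LPS effect lost its call, at 0.93 to 1.3, without untreated duplicate 2, LPS duplicate 2, either epirubicin array or duplicate 2 of both agents, and when floored, at 1.28. LGR4, a receptor for R-spondins, had 5.62 and 6.33 with both agents, 9.60 and 9.66 with LPS, 6.60 and 5.23 with epirubicin, and 6.64 and 7.10 untreated, so that LPS alone gave 2.76 and both agents −0.90, which did not pass. Epirubicin alone gave −0.95, and the joint effect of LGR4 differed from the sum of the single effects by −2.71 (unadjusted p = 0.0026 from limma). LPS lowered and epirubicin raised 11 probe sets, of which 3 were lower with both agents and 8 lay within 2-fold, with joint differences of −1.76 to 0.79 and a median of −0.57. BARX1, a homeobox factor, had 8.19 and 8.35 with both agents, 6.96 and 6.26 with LPS, 9.56 and 9.98 with epirubicin, and 7.56 and 7.41 untreated. This smaller class moved most between fits. It held 2 probe sets where an adjusted p of at most 0.05 from limma was also asked and 5 on floored values, and it grew without some single arrays.

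**Figure D3:**
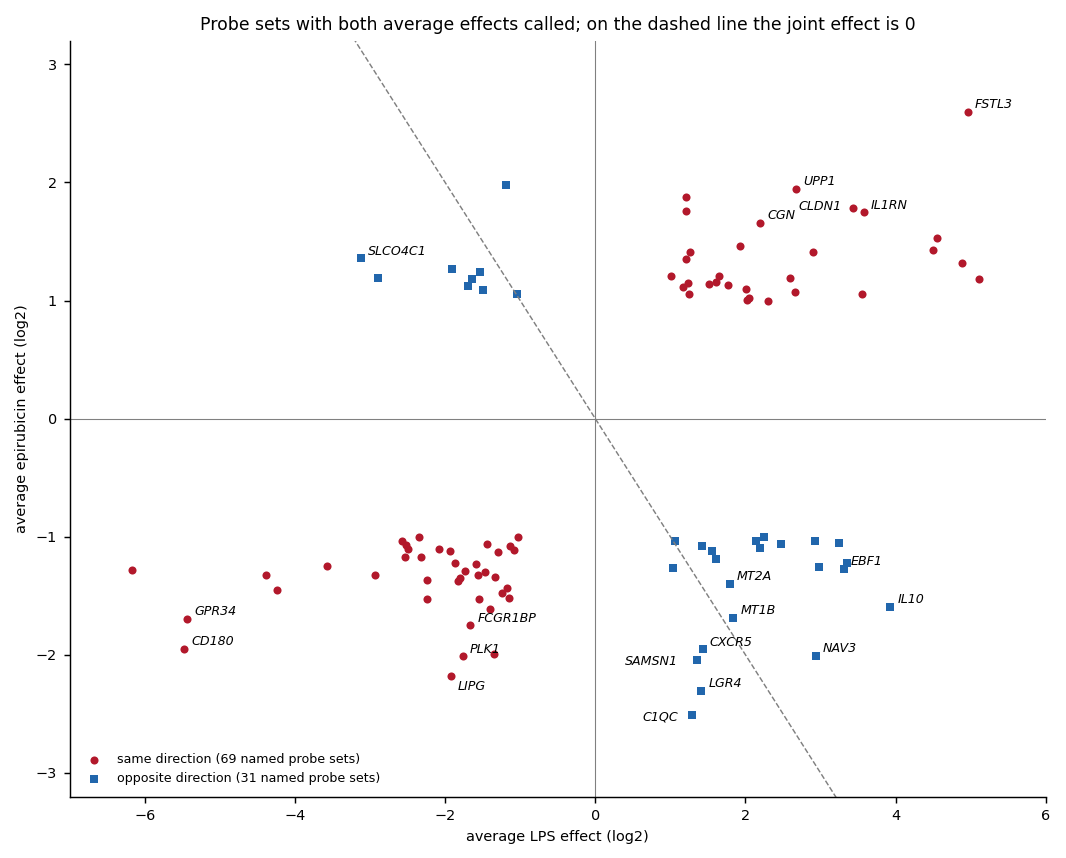
Average epirubicin effect (vertical axis, log2) against average LPS effect (horizontal axis, log2) for the 100 named probe sets that passed the threshold for both, in the same direction (circles) or in opposite directions (squares). On the dashed line the effects cancel. Opposite-direction probe sets lie on either side of it, IL10 with a joint difference of 2.33, and CD180, GPR34 and FSTL3 lie far from it.

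Metallothioneins are a family of small cysteine-rich proteins that bind zinc and copper. Average LPS and epirubicin effects opposed each other in 4 of 12 measured members, MT1B, MT1H, MT1M and MT2A. Of all probe sets, 0.172% were in the opposite-direction class. MT2A and MT1B were named by the rule for opposite effects, and the other family members were added after their values were seen. MT2A had 14.32 and 14.40 with both agents, 16.39 and 15.94 with LPS, 13.00 and 12.96 with epirubicin, and 14.27 and 13.68 untreated. The arrays with both agents were just above the untreated ones, and LPS and epirubicin stood apart on either side. LPS alone gave 2.19, epirubicin alone −0.99 and both 0.39 ± 0.28, which did not pass (adjusted p = 0.445). Over MT1B, MT1E, MT1G, MT1H, MT1L, MT1M, MT1X and MT2A, LPS alone gave 1.69 to 2.53 and both agents −0.20 to 0.64, and these near-identical genes may share probe signal. Of the other 4, MT1F had 0.52 for LPS alone and −0.47 for both agents, and MT1HL1, MT1IP and MT3 averaged under 6 in every condition. In 3 of the 12, MT1E, MT1L and MT1X, the difference from the sum of the single effects passed the looser threshold defined below. These differences were −1.93, −1.88 and −1.24. Of all probe sets, 0.9% passed that threshold with a negative difference. SLC39A8, a zinc importer, had 11.53 and 11.71 with both agents, 13.17 and 13.22 with LPS, 10.13 and 10.65 with epirubicin, and 10.80 and 10.36 untreated. It rose by 1.04 with both agents, against 2.62 with LPS alone.

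Metallothionein promoters carry metal response elements, which the zinc-sensing factor MTF-1 binds. The promoters of MT2A (GRCh38.p14, chr16:56608334-56608633, plus strand) and MT1X (chr16:56682220-56682519, plus strand) are shown because they hold such letters in different numbers. Capitals mark matches to TGCACNC or TGCGCNC on either strand, 8 in MT2A and 4 in MT1X. Over 35116 RefSeq promoters of 300 bases, 10377 (29.6%) hold at least 1 match, so a single match is common, and a match is a description of the letters, not a bound site.
MT2A: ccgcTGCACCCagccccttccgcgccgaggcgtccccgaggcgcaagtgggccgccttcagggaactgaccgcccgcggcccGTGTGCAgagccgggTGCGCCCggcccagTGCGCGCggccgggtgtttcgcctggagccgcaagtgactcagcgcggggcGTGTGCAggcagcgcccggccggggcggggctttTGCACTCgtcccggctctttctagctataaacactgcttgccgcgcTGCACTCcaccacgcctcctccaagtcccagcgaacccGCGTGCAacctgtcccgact
MT1X: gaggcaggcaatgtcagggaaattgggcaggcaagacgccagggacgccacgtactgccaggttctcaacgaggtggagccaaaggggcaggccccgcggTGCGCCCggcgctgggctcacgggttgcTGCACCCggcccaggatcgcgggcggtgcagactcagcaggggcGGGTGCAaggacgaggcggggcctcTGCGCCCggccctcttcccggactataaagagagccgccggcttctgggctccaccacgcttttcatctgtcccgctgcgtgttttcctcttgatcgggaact

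The difference between the joint effect and the sum of the single effects was tested for every probe set. On the log2 scale effects that sum are effects that multiply in expression. Of the 2788 probe sets with a joint change, 2408 (86.4%) lay within 1 log2 unit of the sum, and of all 20893 tested 91.2% did. At an adjusted p of at most 0.05 from limma, 1 probe set differed from the sum (0.00479%), and 1542 had an unadjusted p of at most 0.05. The next smallest adjusted p was 0.141. At the looser threshold, an unadjusted p no higher than 0.01 with a difference of 1 or more in size, 342 probe sets passed (1.64%), with 154 positive (0.737%) and 188 negative (0.9%) differences. Among those with a joint change, 69 went beyond the sum, where the difference had the sign of the joint effect. In the other direction, 61 stayed short of it. Beyond the sum thus includes probe sets whose summed effects pointed away from the joint effect. Examples are JCAD (joint 1.45, sum −1.66) and ZNF219 (joint −1.63, sum 0.99). Genes named in the following paragraphs for their difference from the sum passed that looser threshold unless stated otherwise. Only FSTL3 passed after adjustment in this fit. A trended robust prior, by contrast, gave 19 probe sets beyond and 15 short of the sum at the adjusted threshold, and the duplicate number as a block gave 0 of either. On floored values, 112 of the 342 passed the looser threshold, with 35 of the 69 beyond and 27 of the 61 short.

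FSTL3, a secreted antagonist of activin, had 12.18 and 12.58 with both agents, 7.44 and 6.94 with LPS, 4.57 and 5.07 with epirubicin, and 4.71 and 4.93 untreated. Epirubicin alone left it where the untreated arrays were, and with LPS it stood about 5 log2 units above LPS alone. The joint rise was 7.56 ± 0.30, the sum of the single effects 2.37 and the difference 5.19 ± 0.42 (adjusted p = 0.029 from limma). Without any 1 of the 8 arrays the adjusted p of this difference lay between 0.0925 and 0.362, with the duplicate number as a block it was 0.105, and when floored it was 0.0554. INHBA, which encodes the activin subunit that FSTL3 binds, also went beyond the sum. It had 11.63 and 11.34 with both agents, 9.68 and 9.90 with LPS, 4.16 and 4.69 with epirubicin, and 4.97 and 4.79 untreated, a difference from the sum of 2.14, or 1.69 when floored. IL1RN, with 2.01 (adjusted p = 0.596 from limma), was another secreted antagonist beyond the sum. Over the 11 measured anti-inflammatory and antagonist cytokines, 7 differences were positive and 4 negative, with a median of 0.32. Over all probe sets 10601 were positive and 10292 negative. IL10 had −1.19.

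NXN, a thioredoxin relative, had 11.48 and 11.14 with both agents, 8.50 and 7.88 with LPS, 8.22 and 7.28 with epirubicin, and 8.97 and 8.12 untreated. The arrays of the other 3 conditions overlapped and only those with both agents stood apart, for a joint rise of 2.76 against a sum of −1.16. SLC12A7, a potassium and chloride cotransporter, had 11.44 and 11.49 with both agents, 9.67 and 9.95 with LPS, 7.47 and 6.99 with epirubicin, and 8.56 and 9.07 untreated. Epirubicin alone stood below untreated and epirubicin with LPS above LPS alone, a difference from the sum of 3.24. CGN, the tight junction protein cingulin, JCAD, a junction protein, TRIM47, a ubiquitin ligase, and TWIST1, a mesenchymal transcription factor, went beyond the sum by 3.58, 3.11, 2.61 and 2.32. CGN and JCAD were under 6 on average in every condition but both agents, and when floored these differences were 0.86, 0.71, 2.51 and 1.65, of which only that of TRIM47 still passed. In MLNR, the motilin receptor, the joint effect ran the other way from the sum. It had 4.12 and 3.87 with both agents, 4.56 and 4.36 with LPS, 8.29 and 8.80 with epirubicin, and 5.48 and 5.92 untreated. The rise with epirubicin alone was not seen where LPS was added, with a joint difference of −1.71, a sum of 1.6 and most values near background, and its difference from the sum was −2.55 when floored.

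Other genes stayed short of the sum. NR4A2 had 13.96 and 13.49 with both agents, 14.18 and 14.06 with LPS, 5.64 and 6.53 with epirubicin, and 4.26 and 3.10 untreated. Epirubicin alone and LPS alone summed to 12.85 and both gave 10.05, a difference of −2.80. Its values without LPS lay near background, and when floored the difference was −0.66 and did not pass. SNAI1, a transcription factor of the epithelial to mesenchymal switch, had 12.93 and 12.86 with both agents, 13.46 and 12.93 with LPS, 7.13 and 7.54 with epirubicin, and 5.40 and 4.85 untreated, a difference from the sum of −2.51, or −1.63 when floored. For these genes the scale matters, since a sum taken on the linear scale left NR4A2 at −0.40 and SNAI1 at −0.32 on the log2 scale. TIMP3, a metalloproteinase inhibitor, had 9.62 and 9.28 with both agents, 11.03 and 11.53 with LPS, 8.29 and 7.13 with epirubicin, and 7.46 and 6.86 untreated. It stayed below LPS alone, as did CASP5 with 7.19 and 6.99 with both agents against 8.45 and 8.64 with LPS, and their differences from the sum were −2.37 and −2.23. On the linear scale these were −1.86 and −1.49, and when floored they were −2.37, which no longer passed, and −1.46, which did.

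**Figure D4:**
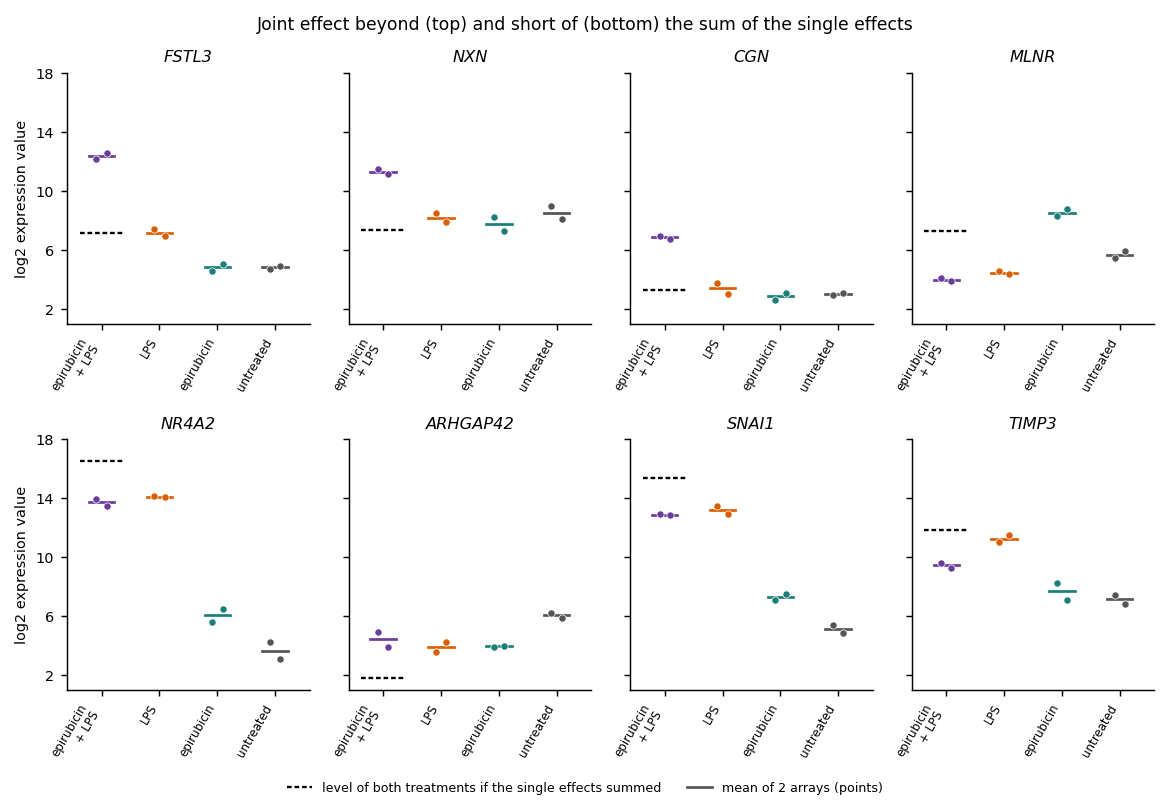
Log2 expression value (vertical axis) on each array for the 4 named genes furthest beyond the sum of the single effects (top) and furthest short of it (bottom), with points for arrays, bars for means and a dashed line at the level that summed effects would give. The mean of FSTL3 with both agents lies 5.19 above the dashed line, and the mean of NR4A2 differs from it by −2.80. CGN is under 6, near background, in the other conditions, and its difference was 0.86 when floored.

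The share of probe sets within 1 of the sum was counted by the size of the joint change. Among the 1015 probe sets that rose between 2-fold and 8-fold, 87.2% lay within 1 of the sum. Of the 215 that rose 8-fold to 64-fold it was 74.9%, and of the 54 that rose over 64-fold 59.3%. In those 54 the median joint difference was 7.25 and the median sum 7.69, and 16 fell short by at least 1 while 6 went beyond by at least 1. For falls the shares were 88.8% of 1389, 82.9% of 111 and 100% of 4. These shares were counted on values that were not floored. The largest rises include genes near background without LPS, such as CCL3L3 and NR4A2. Whether the shares change with size on floored values was not tested. Immediate early genes had a negative difference from the sum in 18 of 23 members, beside 10292 of all 20893 probe sets. Their median was −0.66 against 0.01 over all probe sets. Of the members, NR4A2, NR4A3 and FOSL2 passed the looser threshold, with −2.80, −1.48 and −1.71. Of all probe sets, 0.9% passed it with a negative difference. Among floored values, 18 of 23 were again negative, with a median of −0.66, but NR4A2 and NR4A3 were at −0.66 and −0.67 and those that passed were FOSL2 and EGR3.

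S phase genes had a negative difference from the sum in 47 of 55 members, beside 10292 of all 20893 probe sets. Their median was −0.68, and 6 passed the looser threshold, beside 0.9% of all probe sets in that direction. Once floored, 47 were negative, the median was −0.52 and 2 passed, MCM6 and RRM2. Their measured median was 0.62 for epirubicin alone, −0.60 for LPS alone and −0.40 for both agents. DTL, which marks the licensing factor CDT1 for destruction, had 7.60 and 7.59 with both agents, 8.28 and 8.23 with LPS, 10.25 and 10.37 with epirubicin, and 9.91 and 9.12 untreated. Its arrays with epirubicin were the highest and those with both agents the lowest, a joint fall of 1.92 and a difference from the sum of −1.45. PCNA, the sliding clamp of DNA polymerase, fell by 1.75 with both agents and PRIM1, a primase subunit, by 2.43, where epirubicin alone gave 0.62 in each case, a value that did not pass.

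Interferon-stimulated genes leaned the other way. Of 47 type I interferon-stimulated genes 37 had a positive difference from the sum, beside 10601 of all 20893 probe sets. Their median was 0.52, and 3 passed the looser threshold, beside 0.737% of all probe sets in that direction. The 3 were ISG20, an exonuclease, IFIH1, the RNA sensor MDA5, and SAMD9, an antiviral factor. When floored, 37 were positive, the median was 0.47 and 4 passed, OAS2, IFIH1, DHX58 and SAMD9. IFIH1 had 12.73 and 12.63 with both agents, 11.08 and 11.21 with LPS, 9.78 and 10.02 with epirubicin, and 9.58 and 9.93 untreated. Epirubicin alone overlapped untreated, and with LPS it stood 1.53 above LPS alone, a difference from the sum of 1.39.

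Guanylate-binding proteins, interferon-induced GTPases that attack vacuoles of bacteria, had a positive difference from the sum past the looser threshold in 4 of 7 measured members. Of all probe sets, 0.737% had such a difference. GBP1 was named by the rule for the sum and GBP2 as a list member, and the others were added after their values were seen. GBP1 had 12.86 and 12.69 with both agents, 11.53 and 11.21 with LPS, 7.45 and 8.23 with epirubicin, and 8.64 and 8.93 untreated. Epirubicin alone stood below untreated, and epirubicin with LPS above LPS, for a joint rise of 3.99 and a difference from the sum of 2.36. GBP4 had 11.27 and 11.18 with both agents, 10.45 and 10.60 with LPS, 9.13 and 8.89 with epirubicin, and 10.01 and 9.68 untreated, with the same order and a difference of 1.53. GBP2 and GBP3 had differences of 1.50 and 1.23, and GBP5 had −0.42 and did not pass. GBP6, under 6 on average in every condition, had 1.09 and GBP7 0.18, and neither passed. The sequences of these paralogues are alike, so that probes may share part of their signal.

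Genes of this family are known targets of interferon-activated factors, which bind interferon-stimulated response elements. The promoters of GBP1 (GRCh38.p14, chr1:89065159-89065458, minus strand) and GBP3 (chr1:89022817-89023116, minus strand) are shown because both hold a match with the same letters. Capitals mark the match to GAAA followed, after any 2 bases, by GAAA on either strand, here on the reverse strand in both, and 1255 of 35116 promoters (3.57%) hold at least 1.
GBP1: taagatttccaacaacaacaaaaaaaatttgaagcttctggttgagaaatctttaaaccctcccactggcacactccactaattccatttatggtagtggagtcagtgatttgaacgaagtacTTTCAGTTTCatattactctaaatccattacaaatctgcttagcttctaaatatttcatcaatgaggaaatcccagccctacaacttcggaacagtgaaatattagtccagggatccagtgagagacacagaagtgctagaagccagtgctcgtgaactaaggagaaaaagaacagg
GBP3: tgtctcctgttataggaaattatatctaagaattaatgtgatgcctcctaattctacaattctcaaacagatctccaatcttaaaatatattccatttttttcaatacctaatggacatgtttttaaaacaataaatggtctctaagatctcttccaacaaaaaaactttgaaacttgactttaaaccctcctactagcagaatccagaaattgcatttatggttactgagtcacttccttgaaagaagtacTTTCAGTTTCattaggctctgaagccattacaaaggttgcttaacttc

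**Figure D5:**
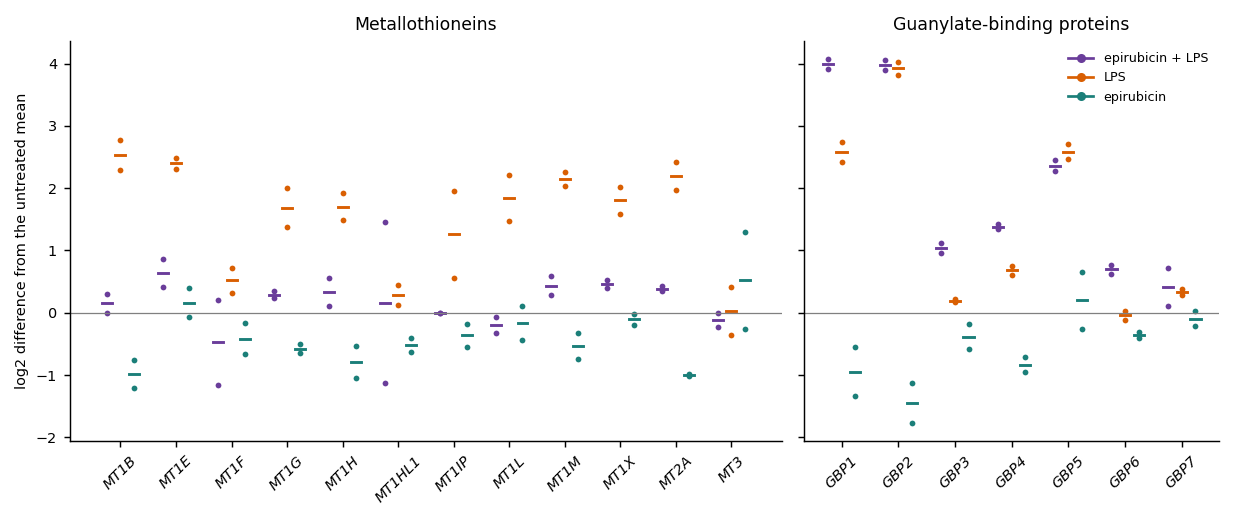
Log2 difference from the untreated mean (vertical axis) on each array for 12 metallothioneins and 7 guanylate-binding proteins, with points for arrays and bars for the mean of 2 in epirubicin plus LPS, LPS and epirubicin. Means with LPS are 1.69 to 2.53 for 8 of the metallothioneins, the other 4 being MT1F, MT1HL1, MT1IP and MT3, and GBP1, GBP3 and GBP4 are highest with both agents and lowest with epirubicin.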

How the data were processed

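RNA of PMA-treated THP-1 cells was measured on 8 Clariom S HT arrays, and the authors deposited the normalized signal as log2 values. The normalization is named SST-RMA in the study's methods but RMA in the labels, with a software version not given in the sources used here. The log2 values were taken as deposited. Of 24351 rows, 20893 gene (TC) probe sets were tested and 3458 others, controls and 555 unmapped probe sets included, were left out. A single gene name was at hand for 17803 (17705 from the platform table, 98 from the study's supplementary tables), covering 17750 genes, and where several probe sets share a gene the one with the highest overall mean stands for it.

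All 4 conditions were fitted in 1 limma model (limma 3.58.1, R 4.3.3; 4 residual and 4.25 prior degrees of freedom, prior SD 0.299), and the small number of arrays limits precision. An exact permutation test of 2 arrays against 2 cannot go below p = 0.333 and was not used. The joint effect is epirubicin with LPS minus untreated, and the difference from the sum is the joint effect minus both single effects. Errors are standard errors from the fit. Single and average effects were called at an unadjusted p of at most 0.01 and at least 2-fold, the rule the study states for its arrays, and the difference from the sum at an adjusted p of at most 0.05. Duplicate numbers did not pair the arrays (6 correlations of deviations, −0.00876 to 0.0208).

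Named genes are the 15 largest joint rises and falls with a mean of at least 6 in the higher condition, the 10 largest differences beyond and short of the sum, the 10 with the largest smaller average effect for each class, up to 6 members per list with the smallest p, genes the article names, and further list members where counts were small. Members and the 29 gene lists, assembled by hand, were chosen with earlier results of these data known. Alternatives were adjusted thresholds, a trended robust prior, a duplicate block, a filter on dim probe sets, array centring, quantile normalization, only the arrays compared, a linear sum, leaving out each array, and, chosen after seeing the data, raising values under 6 to 6 and adding unmapped probe sets. The fit was tested on simulated data. Promoters are 300 bases from RefSeq (GRCh38.p14). Figures were drawn with Python 3.11.15 and matplotlib 3.10.9.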

Additional observations from a re-analysis of the deposited data

Results flagged for a closer look

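FSTL3 responded to LPS differently with and without epirubicin. The LPS effect with epirubicin minus the LPS effect without it was 5.19 ± 0.42 on the log2 scale (standard error, adjusted p = 0.029 from limma's test of the difference over 20893 probe sets), with both arrays of epirubicin plus LPS above both arrays of LPS. Its values in the conditions without LPS lay near background, and the adjusted p was above 0.05 without each of the 8 arrays in turn.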

How the results depend on the processing

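The joint counts and the average LPS counts stayed within 1.5 times under every alternative run, except 950 joint falls where values under 6 were raised to 6. Leaving out each array in turn gave 1088 to 1286 joint rises and 1213 to 1505 joint falls, with 0 to 0 differences beyond the sum. Other ranges were 148 to 182 higher and 183 to 208 lower for the average epirubicin effect, 1155 to 1177 higher and 1367 to 1503 lower for the average LPS effect, 26 to 44 both higher, 42 to 57 both lower, 27 to 37 for LPS higher with epirubicin lower, and 12 to 30 for the reverse. A trended robust prior gave 19 probe sets beyond and 15 short of the sum, and the replicate block gave 0 beyond, 1286 joint rises and 1490 joint falls. At an unadjusted p no higher than 0.01 with a difference of 1 or more, 69 were beyond and 61 short. With an adjusted p of at most 0.05 as well as 2-fold, the average epirubicin effect kept 35 higher and 63 lower, the same-direction class 10 higher and 19 lower, and the opposite-direction class 9 with LPS higher and 2 with LPS lower. Raising values under 6 to 6 gave 2 beyond and 4 short, 65 higher and 97 lower for epirubicin, 15 and 25 in the same direction, and 5 with LPS lower and epirubicin higher. The cause of these differences was not tested. No result reversed. Of 2788 joint calls 1667 passed without each array in turn, as did 39 of 76 same-direction and 19 of 36 opposite-direction calls. The depth limit is the background, under which the size of a change is a bound only.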
